A study of Mus musculus with 7 samples.

Results

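The Hox genes described here are 33 genes of the HoxA, HoxB, HoxC and HoxD clusters, measured in nucleus pulposus (NP), the gelatinous core of the intervertebral disc, of 7 mice. They are all the genes whose symbol in the platform annotation is Hox followed by a cluster letter and a number, each with 1 feature on the array, among 19505 named genes and 28846 features in all. Other Hox genes, such as Hoxa7, Hoxa9, Hoxb4, Hoxd3 and Hoxd4, were not analysed here. The 33 genes were taken by symbol and not by measured value, although the Hox genes as a subject were chosen with earlier results of these data known. Each Affymetrix array held RNA from 1 animal. Wild-type (WT) mice numbered 4 and were 13 months old, and mice with a global knockout of MCT4, the plasma membrane lactate exporter encoded by Slc16a3, numbered 3 and were 14 months old (MCT4KO), so age and genotype cannot be told apart. Heterozygous MCT4+/- mice, backcrossed for 10 generations to C57BL/6N, were the parents of both groups. The strain tag reads C57BL/6 for every sample, whereas the series' design text gives C57BL/6 for WT and C57BL/6N for the knockouts. Because the knockout is global, every tissue of the MCT4KO animals lacked the transporter. NP from lumbar and caudal discs of an animal was combined into 1 sample, and neither the share of each disc level nor the sex of the animals is given in the sources used here.

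Hox genes encode homeodomain transcription factors. Their order along each cluster parallels the order of their expression from the head to the tail of the embryo: genes of low paralog number are active from the hindbrain and neck onward, those of middle number from the thorax, and those of high number from the lumbar, sacral and tail levels. Adult mesenchymal and skeletal tissues keep part of this code, so that the set of active Hox genes differs with the position of a tissue along the body. NP cells descend from the notochord, the embryonic midline rod, and lumbar and caudal discs lie in the posterior body. Hox proteins bind DNA together with PBX and MEIS class homeodomain partners, and Polycomb and Trithorax complexes keep Hox genes silent or active.

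Promoter sequences of 5 members are shown because these genes stand for the contrasts described below. Hoxa2 and Hoxa5 had lower mean values in MCT4KO and Hoxa10 a higher one, while Hoxd8 read at the 96.5th to 97.5th percentile of the array's negative controls and Hoxd13 at background. Each sequence is the 250 bases before a transcription start in RefSeq, build GRCm38.p6, written 5′ to 3′ on the gene's strand, with matches to 3 short motifs in capitals. The windows are chr6:52164832-52165081 (minus strand) for Hoxa2, chr6:52204588-52204837 (minus strand) for Hoxa5, chr6:52234940-52235189 (minus strand, the inner of 2 listed starts) for Hoxa10, chr2:74704365-74704614 (plus strand) for Hoxd8 and chr2:74667975-74668224 (plus strand) for Hoxd13.
Hoxa2: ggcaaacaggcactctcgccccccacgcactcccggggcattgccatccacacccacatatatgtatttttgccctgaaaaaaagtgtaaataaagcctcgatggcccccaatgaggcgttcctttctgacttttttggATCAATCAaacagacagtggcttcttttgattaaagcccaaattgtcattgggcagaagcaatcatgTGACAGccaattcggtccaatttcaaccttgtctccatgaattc
Hoxa5: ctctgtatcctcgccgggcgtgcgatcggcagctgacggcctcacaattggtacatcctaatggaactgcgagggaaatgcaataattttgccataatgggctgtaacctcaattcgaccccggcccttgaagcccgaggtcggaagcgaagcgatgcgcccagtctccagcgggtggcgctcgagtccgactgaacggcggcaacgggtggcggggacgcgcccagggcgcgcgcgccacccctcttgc
Hoxa10: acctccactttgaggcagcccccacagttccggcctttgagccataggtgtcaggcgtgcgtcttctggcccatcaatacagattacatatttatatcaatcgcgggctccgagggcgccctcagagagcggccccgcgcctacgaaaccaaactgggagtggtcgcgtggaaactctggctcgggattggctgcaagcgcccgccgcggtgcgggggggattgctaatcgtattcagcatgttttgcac
Hoxd8: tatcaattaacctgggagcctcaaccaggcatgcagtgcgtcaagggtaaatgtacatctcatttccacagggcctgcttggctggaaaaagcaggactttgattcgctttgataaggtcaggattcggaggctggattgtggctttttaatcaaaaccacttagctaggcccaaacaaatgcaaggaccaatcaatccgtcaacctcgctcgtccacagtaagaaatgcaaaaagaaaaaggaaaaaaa
Hoxd13: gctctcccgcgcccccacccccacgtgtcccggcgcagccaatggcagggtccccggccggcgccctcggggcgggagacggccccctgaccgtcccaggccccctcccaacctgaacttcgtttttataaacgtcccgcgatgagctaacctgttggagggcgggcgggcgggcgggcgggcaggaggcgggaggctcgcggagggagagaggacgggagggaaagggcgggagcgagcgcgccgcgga
The motifs searched on both strands were TGATNNAT (PBX-HOX type), TGACAG (MEIS core) and TTTATG (CDX type). In the Hoxa2 window TGATNNAT matched on the opposite strand, which reads ATCAATCA here, at positions -111 to -104 from the start, and TGACAG matched at -44 to -39. The other 4 windows held none of these letters. RefSeq promoters were matched for 17 of the 33 genes, with 19 starts. TGATNNAT was found for 4 of these genes (Hoxa2, Hoxd11, Hoxb1 and Hoxb8) and in 7.68% of all 32851 promoters in the table. TGACAG was found for Hoxa2 and Hoxa3 and in 15.9% of all promoters, and TTTATG for Hoxd11 and Hoxb8 and in 10.8%. CG dinucleotides numbered 6 in the Hoxa2 window, 28 in Hoxa5, 20 in Hoxa10, 6 in Hoxd8 and 31 in Hoxd13, beside a median of 6 over all promoters, so the window of Hoxd13, read at background, held more CG dinucleotides than those of the other 4 genes. A match is a description of letters and not of binding.

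Slc16a3 followed the labels in every animal. WT arrays read between 13.35 and 13.61 on the log2 scale for this gene and MCT4KO arrays between 4.47 and 5.02, a difference of -8.65 ± 0.165 (SE; adjusted p = 6.7e-09 by limma). NP and notochord markers were measured for 20 of 23 genes, and 15 read above the control median on all 7 arrays. The keratins Krt8 and Krt19, carbonic anhydrase Car3, Cd24a and aggrecan (Acan) lay between 16.52 and 19.41, whereas Car12, Basp1 and the notochord factor Foxa1 read at background in both groups. Array medians over genes ran from 6.46 to 6.51. Background was read from 5222 negative control features, whose median was 5.99 overall and 5.91 to 6.08 by array, with 95th percentiles of 9.59 to 10.03. Values of different features cannot be set against each other on this array, so the level of each Hox gene is placed against the controls of the same array, and a difference between features within an animal is used only to compare animals. In whole NP tissue, fewer cells expressing a gene and less RNA per cell cannot be told apart.

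Read against the control median, the middle of the control features, parts of HoxA, HoxB and HoxD stood above it in NP. In HoxC only Hoxc9 did so, and narrowly. Of the 33 genes, 13 read above the control median on all 7 arrays (50.4% of all genes did) and 20 read at or below it on all 7 (39.1% of all genes), with 0 in between. This division at the control median was chosen after the values were seen. The 13 were Hoxa2, Hoxa3, Hoxa4, Hoxa5, Hoxa6 and Hoxa10, Hoxb2 and Hoxb7, Hoxc9, and Hoxd8, Hoxd9, Hoxd10 and Hoxd11. By cluster they made up 6 of 8 measured HoxA genes, 2 of 9 HoxB genes, 1 of 9 HoxC genes and 4 of 7 HoxD genes. Hoxd8 to Hoxd11 formed an unbroken run of neighbours, bounded by Hoxd12 and Hoxd13 at background, and Hoxa2 to Hoxa6 formed another.

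By paralog number, 3 of 6 measured genes of groups 1 to 3 read above the control median, 5 of 12 of groups 4 to 8, 2 of 3 of group 9 and 3 of 12 of groups 10 to 13. Among groups 12 and 13, which mark the tail end of the axis in the embryo, all 6 measured genes (Hoxa13, Hoxb13, Hoxc12, Hoxc13, Hoxd12 and Hoxd13) read at background in both genotypes. Hoxa11 and Hoxc11 did so as well, so that Hoxd11 was the only measured gene of groups 11 to 13 above the control median. Stricter thresholds kept fewer genes, and no HoxB or HoxC gene lay above the 90th percentile of the controls on all 7 arrays. All but Hoxa6 and Hoxc9 of the 13 lay above all 23 of the array's other background features, those named by GC content, on all 7 arrays (37.4% of all genes did), and 5 genes, Hoxa5, Hoxa10, Hoxd8, Hoxd9 and Hoxd10, lay above the 90th percentile of the controls on all 7 (27.1%). Above the 95th percentile on every array of a group were Hoxa5 and Hoxd8 in WT (21.1% of all genes) and Hoxa5, Hoxd8 and Hoxd10 in MCT4KO (19.7%). The set of 13 was the same in both genotypes.

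**Figure D1:**
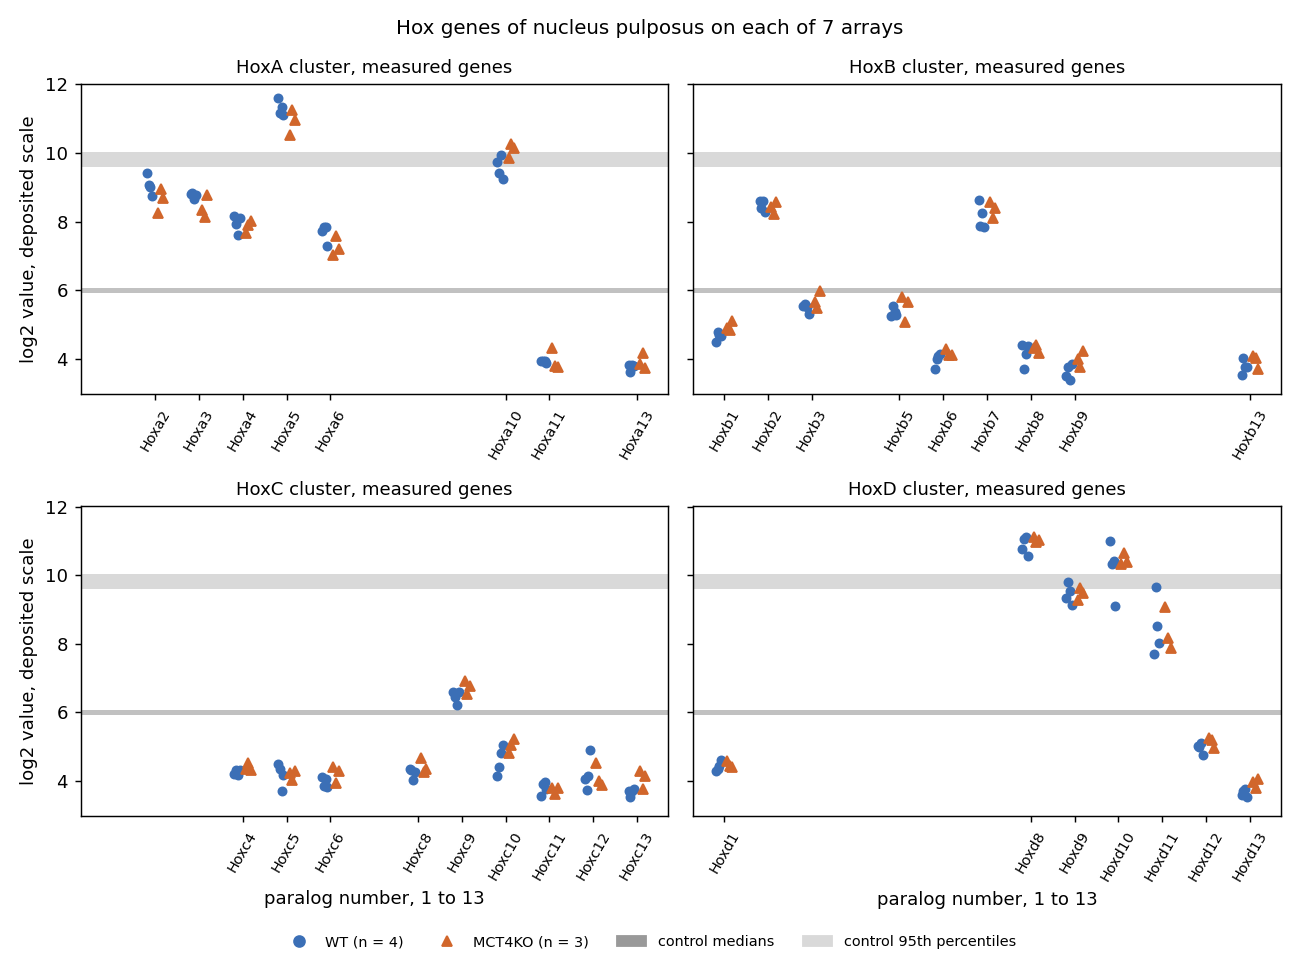
Deposited log2 values (vertical axis) of the 33 measured Hox genes on each array, by cluster and paralog number (horizontal axis); circles are WT animals, triangles MCT4KO animals, the dark band spans the control medians of the 7 arrays (5.91 to 6.08) and the light band their 95th percentiles (9.59 to 10.03). Points of Hoxa2 to Hoxa6, Hoxa10 and Hoxd8 to Hoxd11 lie above the dark band on every array, while Hoxa11, Hoxa13, Hoxd12 and Hoxd13 lie below it.

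The front part of HoxA was read in every animal. Hoxa5, a regulator of cervical and thoracic skeletal identity, had log2 values of 11.61, 11.17, 11.33 and 11.12 for WT 1 to 4 and 10.53, 11.26 and 10.96 for MCT4KO 1 to 3. MCT4KO 1 and MCT4KO 3 lay below every WT animal, and MCT4KO 2 lay among them. The change was -0.39 ± 0.197 (SE; 95% confidence interval -0.83 to 0.05; limma adjusted p = 0.45), and -0.19 without MCT4KO 1, the lowest animal. Hoxa2, which patterns the second pharyngeal arch and the hindbrain, read 9.41, 9.08, 9.02 and 8.75 in WT and 8.26, 8.95 and 8.68 in MCT4KO. Here too the groups overlapped, because MCT4KO 2 exceeded WT 4, and the change was -0.44 ± 0.202 (95% confidence interval -0.89 to 0.02; limma adjusted p = 0.42), and -0.25 without MCT4KO 1.

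Hoxa3, needed for the neck and pharyngeal organs, read 8.80, 8.83, 8.67 and 8.76 in WT and 8.35, 8.12 and 8.76 in MCT4KO, a change of -0.35 ± 0.163 (limma adjusted p = 0.41). MCT4KO 3 stood level with the WT animals and the other 2 knockouts below them. Hoxa6 read 7.72, 7.85, 7.84 and 7.28 in WT and 7.02, 7.58 and 7.20 in MCT4KO, a change of -0.40 ± 0.190 (limma adjusted p = 0.42). On 4 of the 7 arrays it exceeded every GC background feature, whereas the other 4 did so on all 7. Hoxa4 read 8.17, 7.94, 7.62 and 8.10 in WT and 7.67, 7.91 and 8.01 in MCT4KO, with a difference of -0.10 ± 0.166 that was well inside the spread of the animals (limma adjusted p = 0.85). None of these 5 genes passed the threshold.

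Hoxa10, which specifies rib-free lumbar vertebrae and acts in the uterus and hindlimb, was the HoxA gene above the control median with a change above 0. Its log2 values were 9.73, 9.42, 9.95 and 9.23 for WT 1 to 4 and 9.86, 10.26 and 10.15 for MCT4KO 1 to 3. MCT4KO 2 and MCT4KO 3 exceeded every WT animal, but WT 3 exceeded MCT4KO 1, so the groups overlapped. The mean was 9.58 ± 0.319 (SD, n = 4) in WT and 10.09 ± 0.205 (SD, n = 3) in MCT4KO, a change of 0.51 ± 0.192 (SE; 95% confidence interval 0.08 to 0.94). It did not pass over all genes (limma adjusted p = 0.32, and 0.20 to 0.56 over 17 alternative settings), and an exact permutation test (two-sided, 35 ways to divide the animals) gave p = 0.114, where 0.0286 is the smallest it can give. The 2 genes at the posterior end of the cluster read at background on every array, Hoxa11 at 3.76 to 4.30 and Hoxa13 at 3.62 to 4.16.

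The values of Hoxa10 and of its anterior neighbours can be set side by side within each animal. This contrast was chosen because Hoxa10 was seen to be higher and Hoxa2 to Hoxa6 lower in mean, so it restates those values, has no test and supports nothing further. Hoxa10 minus the mean of Hoxa2 to Hoxa6 was 0.58, 0.45, 1.05 and 0.43 for WT 1 to 4 and 1.495, 1.494 and 1.43 for MCT4KO 1 to 3. Every knockout animal lay above every WT animal. The mean was 0.63 ± 0.291 (SD, n = 4) in WT and 1.47 ± 0.0377 (SD, n = 3) in MCT4KO, a difference of 0.85. All 5 anterior genes had a change below 0 on their own, and the mean of Hoxa2 to Hoxa6 was 9.14, 8.97, 8.90 and 8.80 in WT and 8.37, 8.76 and 8.72 in MCT4KO, again without overlap. A wider contrast was less clear: the mean of the 5 genes of paralogs 9 to 11 minus the mean of the 8 of paralogs 2 to 8 was -0.35, 0.11, -0.13 and -0.42 in WT and 0.35, 0.17 and -0.02 in MCT4KO, and the groups overlapped.

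**Figure D2:**
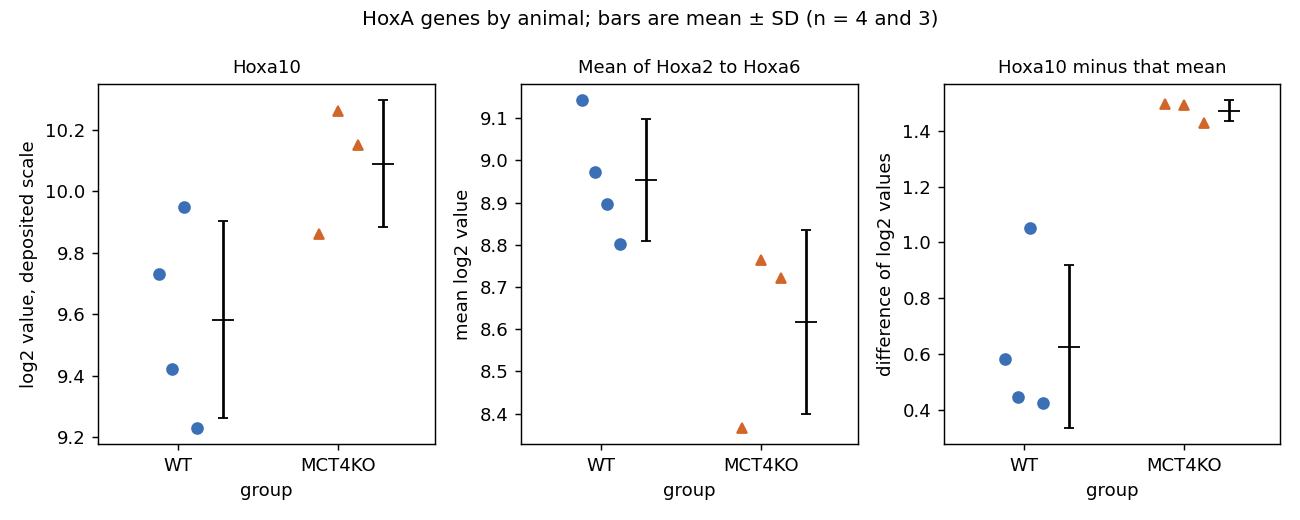
Log2 values (vertical axes) by genotype (horizontal axis) of Hoxa10, of the mean of Hoxa2 to Hoxa6, and of Hoxa10 minus that mean; points are animals, and bars are mean ± SD (n = 4 WT, n = 3 MCT4KO). The groups overlap for Hoxa10 (WT 3 at 9.95, MCT4KO 1 at 9.86) and not in the other 2 panels, which were chosen after the values were seen.

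In HoxD, Hoxd8 and Hoxd9 were close between the genotypes. Hoxd8, which acts in the trunk, read 10.75, 11.05, 11.10 and 10.55 for WT 1 to 4 and 11.11, 10.98 and 11.03 for MCT4KO 1 to 3, a change of 0.18 ± 0.162 (limma adjusted p = 0.68). The knockouts lay within or just above the WT range. Hoxd9, which with its paralogs patterns the lumbosacral spine, read 9.34, 9.79, 9.53 and 9.13 in WT and 9.27, 9.63 and 9.48 in MCT4KO, a difference of 0.01 ± 0.178 (limma adjusted p = 0.99).

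Hoxd10 and Hoxd11 varied widely among animals of the same genotype. Hoxd10, which acts in the lumbosacral spine and hindlimb, read 10.99, 10.33, 10.40 and 9.11 for WT 1 to 4 and 10.32, 10.66 and 10.38 for MCT4KO 1 to 3. WT 4 alone lay below every other animal. The WT SD was 0.791 (n = 4), and the change was 0.25 ± 0.361 (95% confidence interval -0.56 to 1.06; limma adjusted p = 0.81), which became -0.12 without WT 4. Hoxd11, which acts in the sacral spine and the forearm, read 7.69, 9.65, 8.53 and 8.03 in WT and 9.07, 8.18 and 7.87 in MCT4KO. WT 2 and MCT4KO 1 were the high animals of their groups, and the change was -0.10 ± 0.439 (95% confidence interval -1.08 to 0.88; limma adjusted p = 0.94). These intervals include changes of up to about 1 in either direction for Hoxd11, so a change of that size cannot be told from none.

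The pooled SD within groups was 0.624 for Hoxd10 and 0.772 for Hoxd11, at the 97.8th and 98.8th percentile of the 9837 genes above the control median. The median over the 13 Hox genes was 0.276, beside 0.222 over those 9837 genes, and the steadiest was Hoxb2 at 0.168. Hoxd10 and Hoxd11 did not vary together: WT 1 had the highest Hoxd10 and the lowest Hoxd11 of the WT animals. Hoxd10 minus Hoxd8 was 0.24, -0.72, -0.70 and -1.44 in WT and -0.80, -0.32 and -0.64 in MCT4KO. The remaining measured HoxD genes read at background on every array, Hoxd1 at 4.28 to 4.62, Hoxd12 at 4.75 to 5.25 and Hoxd13 at 3.53 to 4.05.

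WT 4 tended to read low across the 13 genes. It was the lowest WT animal for 9 of them (30.2% of the 9837 genes) and lay below the WT mean for 11, with a median deviation of -0.31 from it. Its control median, 6.08, was the highest of the 7 arrays. WT 1 was the highest WT animal for 6 of the 13 (31.5% of the 9837 genes). Among the knockouts, MCT4KO 1 was lowest for 7 (46.6% of the 9837 genes), MCT4KO 2 for 5 (28.3%) and MCT4KO 3 for 1 (25.1%).

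Mean values over marker lists of neighbouring tissue differed among the same animals, but not every marker followed its list mean. Among annulus markers in MCT4KO 1 to 3, Dcn read 16.32, 12.17 and 8.89, and Scx 6.67, 6.68 and 6.77. Among end plate markers in the same animals, Chad read 14.29, 9.93 and 8.56, and Col11a2 7.99, 8.05 and 7.82. The mean over 12 annulus fibrosus and tendon markers was 8.31, 8.91, 8.47 and 8.83 for WT 1 to 4 and 9.45, 8.51 and 7.77 for MCT4KO 1 to 3, and that over 14 end plate and hyaline cartilage markers was 9.27, 9.48, 9.09 and 9.38 in WT and 9.99, 9.21 and 8.49 in MCT4KO. In each group the animal with the highest Hoxd11, WT 2 and MCT4KO 1, also had the highest mean of both lists. The MCT4KO animals stood in the same order for Hoxd11 and both lists, but the WT animals did not. WT 3, second for Hoxd11 in WT at 8.53, had the lowest WT end plate mean, 9.09. Hoxd10 did not follow the lists. Its highest WT value, 10.99, was in WT 1, which had the lowest WT annulus mean. Its lowest knockout value, 10.32, was in MCT4KO 1, which had the highest mean of both lists. Of the annulus markers 6 read above the control median on every array and 1 at background in both groups, and of the end plate markers 10 and 2. Neutrophil and myeloid marrow markers (15 genes, 2 at background in both groups) averaged 7.07, 8.79, 5.72 and 5.97 in WT and 5.61, 5.17 and 5.23 in MCT4KO, again highest in WT 2. The part of these tissues in the Hoxd10 and Hoxd11 values was not tested. Without WT 1 and WT 2 together, the 2 animals with the highest neutrophil means, the Hoxd11 change was 0.10 and still 0 Hox genes passed.

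**Figure D3:**
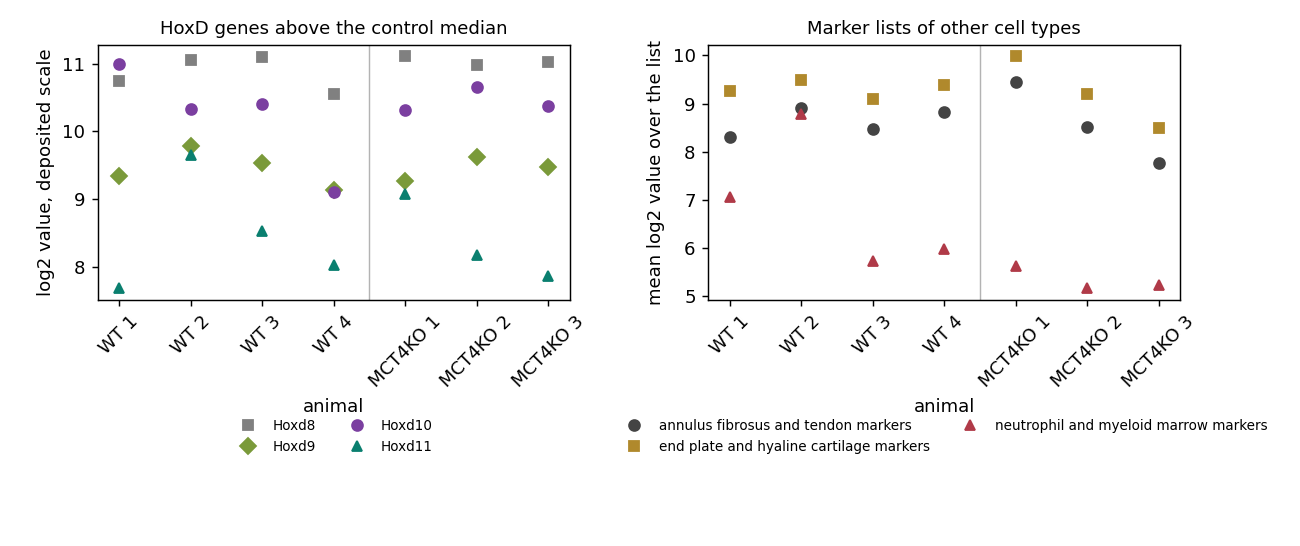
The left panel gives deposited log2 values (vertical axis) of Hoxd8, Hoxd9, Hoxd10 and Hoxd11 in each animal (horizontal axis), and the right panel the mean log2 value over 3 marker lists of other cell types in the same animals. Hoxd11 is highest in WT 2 (9.65) and MCT4KO 1 (9.07), Hoxd10 is lowest in WT 4 (9.11), and the neutrophil mean is highest in WT 2 (8.79).

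Other lists bear on whether muscle, skin or nerve came along with the NP. Of the markers measured, 8 of 9 epidermal, 8 of 10 endothelial, 7 of 9 osteoblast and osteocyte, 6 of 8 B and T cell, 7 of 12 neural and glial, 5 of 9 osteoclast, 5 of 11 macrophage, 4 of 8 adipocyte and 4 of 14 muscle genes read at background in both groups. Of all genes 39.1% did so, more than in the muscle list and not far below the macrophage and adipocyte lists. Counts near that share do not show a tissue to be absent. The muscle mean ran from 5.67 to 6.40 in WT and from 5.76 to 6.32 in MCT4KO. Erythroid markers, 3 of 10 measured, averaged 6.45 to 7.91 in WT and 6.24 to 6.46 in MCT4KO. Among all cell type lists, 1 gene passed the threshold, beside 0.590% of all genes. This was the cartilage proteoglycan Snorc, with a change of -1.53 ± 0.227 (limma adjusted p = 0.027). The part of these cells in the Hox values was not tested.

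HoxB and HoxC were read mostly at background. Hoxb2, a hindbrain and neck gene, read 8.60, 8.40, 8.59 and 8.27 for WT 1 to 4 and 8.41, 8.22 and 8.57 for MCT4KO 1 to 3, a difference of -0.06 ± 0.147 (limma adjusted p = 0.89). Hoxb7, a trunk gene, read 8.63, 7.86, 8.24 and 7.85 in WT and 8.56, 8.10 and 8.40 in MCT4KO, a difference of 0.21 ± 0.210 (limma adjusted p = 0.71). For both genes the knockouts lay within or next to the WT range. Between and beside them on the cluster, Hoxb1 read 4.48 to 5.10, Hoxb3 5.30 to 5.96, reaching the 49th percentile of the controls at most, Hoxb5 5.06 to 5.80, Hoxb6 3.70 to 4.29, Hoxb8 3.69 to 4.40, Hoxb9 3.38 to 4.23 and Hoxb13 3.53 to 4.07.

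Hoxc9, a lower thoracic gene, was the only HoxC gene above the control median, and only narrowly. Its values were 6.58, 6.45, 6.21 and 6.60 in WT and 6.92, 6.54 and 6.76 in MCT4KO, which lie at the 54.4th to 67.7th percentile of the controls and below the highest GC background feature on every array. The difference was 0.28 ± 0.153 (limma adjusted p = 0.47). At background on every array were Hoxc4 (4.17 to 4.52), Hoxc5 (3.72 to 4.48), Hoxc6 (3.81 to 4.42), Hoxc8 (4.02 to 4.68), Hoxc10 (4.15 to 5.21), Hoxc11 (3.57 to 3.97), Hoxc12 (3.74 to 4.91) and Hoxc13 (3.54 to 4.29).

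Between the genotypes, 0 of the 33 Hox genes passed the threshold (adjusted p under 0.05 by limma over 19505 genes), where 115 of all genes, 0.590%, passed (0.472% lower and 0.118% higher). Without adjustment, 2 genes had a p under 0.05, Hoxa10 and Hoxc13, both higher in MCT4KO, beside 12.7% of all genes (5.76% higher and 6.90% lower). Hoxc13 read at background in every animal, so its difference of 0.38 ± 0.154 (limma adjusted p = 0.35) lies below the control median. The groups did not overlap for 2 genes, both higher in MCT4KO, beside 12.0% of all genes (5.66% higher and 6.37% lower). These were Hoxb1, at most 4.79 in WT and at least 4.85 in MCT4KO, and Hoxd13, at most 3.75 and at least 3.78, and both were at background. The smallest adjusted p of a Hox gene under any setting run was 0.18.

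The direction of the small changes differed between genes above and below the control median. Of the 33 genes 24 had a change above 0 (53.0% of all genes) and 9 below, with a median of 0.15 beside 0.017 over all genes. The 20 background genes accounted for 18 of the 24, with a median of 0.17, whereas 66.6% of all 7633 genes at background were above 0 as well. Of the 13 genes above the control median, 6 were above 0 and 7 below, with a median of -0.06 and a range of -0.44 to 0.51, beside 58.7% below 0 and a median of -0.05 over all genes so placed. After quantile normalization 15 of the 20 and 9 of the 13 were above 0, with medians of 0.10 and 0.05, and 51.1% and 52.8% of all genes so placed, so the sign of small changes depended on the scaling. By cluster the medians were -0.22 for HoxA, 0.18 for HoxB, 0.20 for HoxC and 0.17 for HoxD. With a median SE of 0.190 for the 13 genes, changes well under 0.5 could not be told from the spread of the animals even without adjustment. Passing over all genes takes a larger change, since Hoxa10 at 0.51 did not pass (limma adjusted p = 0.32). The absence of Hox calls therefore does not exclude changes of 0.5 or somewhat more.

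**Figure D4:**
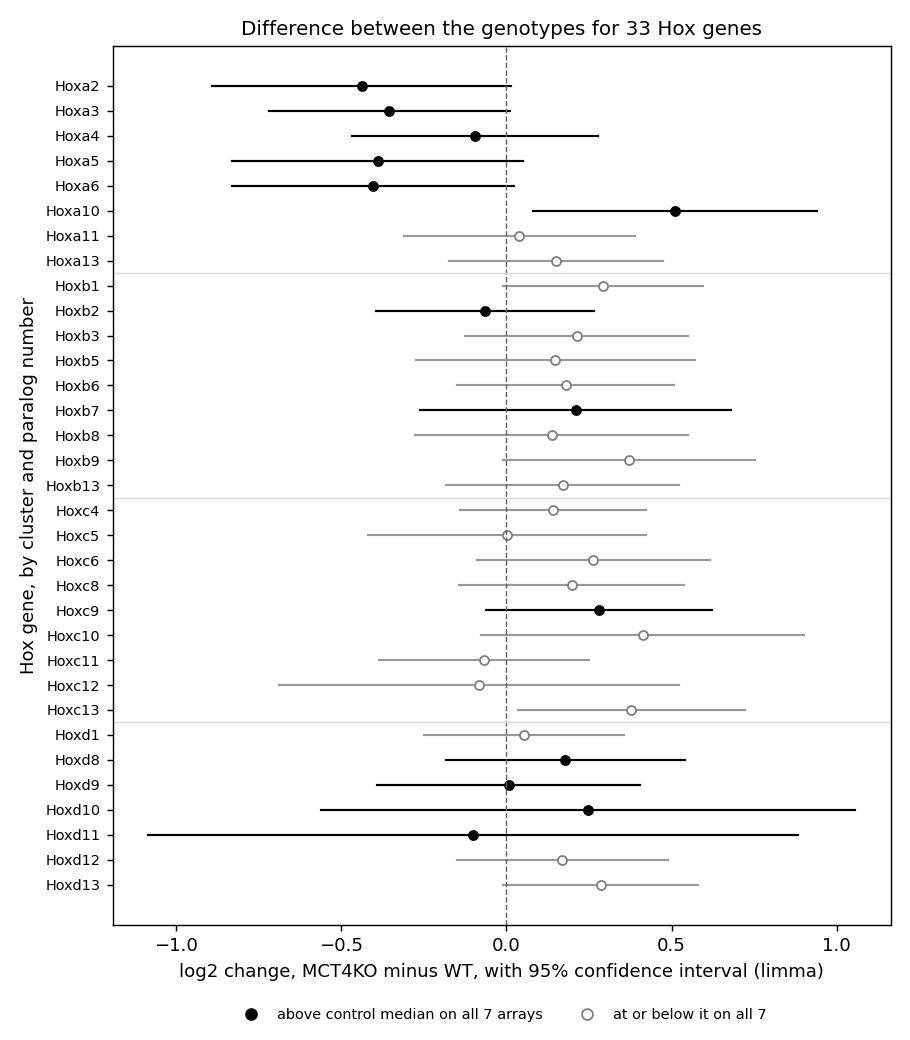
Log2 change, MCT4KO minus WT (horizontal axis), with the 95% confidence interval from limma for the 33 Hox genes by cluster and paralog number (vertical axis); filled points are the 13 genes above the control median on all 7 arrays, open points the 20 at or below it. Hoxa10 (0.51) is the filled point farthest to the right and Hoxa2 (-0.44) the one farthest to the left, and the intervals of Hoxd10 and Hoxd11 are the widest.

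Cofactors of Hox proteins had lower mean values in MCT4KO. All 9 measured PBX and MEIS class cofactors of 10 had a change below 0 (47.0% of all genes, and 58.7% of those above the control median, as 7 of the 9 were), with a median of -0.50. The 9 include Pbxip1, which encodes a PBX-interacting protein and is not itself of that class. Its change, -0.50 ± 0.303 (limma adjusted p = 0.51), is the median of the list. By limma 0 passed the threshold, and 4 had an unadjusted p under 0.05, all lower (6.90% of all genes). The groups did not overlap for 2, both lower (6.37% of all genes). Meis1, a TALE homeodomain partner of posterior Hox proteins, read 9.87, 9.73, 9.53 and 9.43 for WT 1 to 4 and 9.29, 8.87 and 8.77 for MCT4KO 1 to 3. Every knockout lay below every WT animal, and the change was -0.66 ± 0.170 (95% confidence interval -1.05 to -0.28; limma adjusted p = 0.15, and 0.11 to 0.48 over 17 alternative settings). Pbx3, which forms dimers with Hox proteins, read 10.99, 10.77, 10.58 and 10.77 in WT and 10.03, 10.30 and 10.50 in MCT4KO, also without overlap, a change of -0.50 ± 0.159 (limma adjusted p = 0.24).

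Meis2, a paralog of Meis1, read 9.98, 9.80, 9.47 and 9.39 in WT and 8.49, 8.90 and 9.46 in MCT4KO, a change of -0.71 ± 0.236 (limma adjusted p = 0.27). MCT4KO 3 lay within the WT range. The remaining gene with an unadjusted p under 0.05 was Pknox2, a related homeodomain gene named after its values were seen, at 8.21, 8.61, 7.61 and 7.92 in WT and 7.38, 7.69 and 7.23 in MCT4KO (-0.66 ± 0.230; limma adjusted p = 0.29). Of the other members, Pbx4 and Meis3 read near or below the control median. The mean over the 9 genes ran from 8.32 to 8.60 in WT and from 7.83 to 8.18 in MCT4KO. The direction held after quantile normalization, with 9 of 9 below 0 and a median of -0.40.

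**Figure D5:**
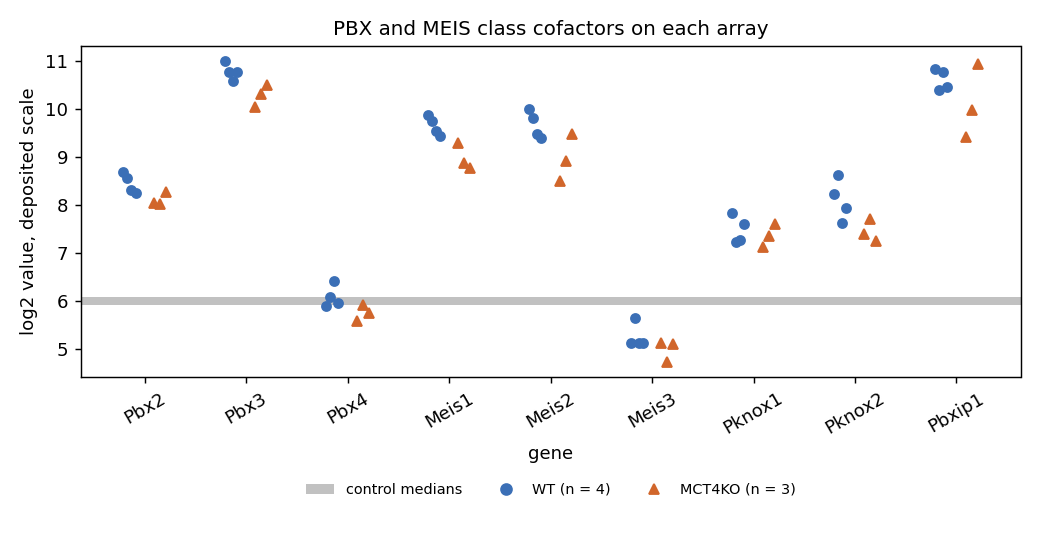
Deposited log2 values (vertical axis) of the 9 measured genes of the PBX and MEIS class cofactor list, Pbxip1 included (horizontal axis), on each array. Circles are WT animals (n = 4), triangles MCT4KO animals (n = 3), and the band spans the control medians (5.91 to 6.08). The groups are separate for Meis1 and Pbx3 (12.0% of all genes were separate) and overlap for the other 7 genes, and none passed the threshold.

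Among chromatin regulators that hold Hox clusters silent, 27 of 29 Polycomb genes were measured. Only Cbx7, a chromodomain subunit of the PRC1 complex, passed. It read 9.27, 8.70, 8.89 and 8.46 in WT and 7.62, 7.64 and 7.61 in MCT4KO. The knockouts were nearly identical and all lay below WT. The mean was 8.83 ± 0.340 (SD, n = 4) in WT and fell to 7.62 ± 0.0143 (SD, n = 3) in MCT4KO, a change of -1.21 ± 0.185 (limma adjusted p = 0.029). Over 17 alternative settings the adjusted p ran from 0.023 to 0.10 and the call was lost in 8, while the change stayed between -1.33 and -1.05. Those included leaving out WT 2 (0.065), WT 3 (0.091), MCT4KO 1 (0.099), MCT4KO 2 (0.074) or MCT4KO 3 (0.092). Pcgf5, another PRC1 subunit, had a change of 0.78 ± 0.248 (limma adjusted p = 0.25). Kdm2b, which brings PRC1 to CpG islands, had one of -0.40 ± 0.157 (limma adjusted p = 0.33). Kdm2b read 5.31 to 6.11, below the control median on every array but WT 4. With values raised to the control median its change was -0.016. Over the list 19 changes were below 0 and 8 above, with a median of -0.11. Of these genes 23 read above the control median on all arrays, where 58.7% of all genes were below 0 with a median of -0.05.

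Trithorax genes, which act against Polycomb silencing, were measured for 16 of 18. Men1, the menin subunit of the MLL complexes that keep Hox genes active, read 8.46, 8.05, 8.23 and 8.61 in WT and 7.19, 7.44 and 7.55 in MCT4KO, without overlap. Its change of -0.94 ± 0.168 passed narrowly (limma adjusted p = 0.048), and over 17 alternative settings the adjusted p ran from 0.035 to 0.19 and the call was lost in 14, including each setting without 1 animal (0.063 to 0.15) and quantile normalization (0.076), while the change stayed between -1.04 and -0.84. Cxxc1 and Ash2l, subunits of histone H3 methyltransferase complexes, had changes of -0.43 ± 0.130 (limma adjusted p = 0.22) and -0.43 ± 0.137 (limma adjusted p = 0.25). Of the 16 genes, all above the control median on every array, 14 were below 0 with a median of -0.31, beside 58.7% and a median of -0.05 over all genes so placed. After quantile normalization 12 were below 0, with a median of -0.23.

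Factors that start the Hox code in the embryo were mostly not read here. Of 14 measured CDX and axial patterning factors 10 read at background in both groups, and by limma 0 passed and 0 had an unadjusted p under 0.05. The 3 with the smallest p were Egr2, a hindbrain regulator of Hoxa2 and Hoxb2, at 6.51, 9.18, 8.45 and 9.48 in WT and 6.88, 7.28 and 7.82 in MCT4KO (-1.08 ± 0.601; limma adjusted p = 0.48; -1.71 and 0.077 without WT 1, and -0.72 without WT 4), and Msgn1 and Cdx1, at 0.31 ± 0.196 and 0.24 ± 0.149 (limma adjusted p = 0.54 for each). Retinoic acid, the vitamin A derivative that induces anterior Hox genes, was covered by 16 of 17 genes, with 0 passing, 3 at an unadjusted p under 0.05 (12.7% of all genes) and 8 at background. Its synthesis enzyme Aldh1a2 read at background (0.44 ± 0.156; limma adjusted p = 0.29), the retinaldehyde reductase Dhrs3 had a change of -0.70 ± 0.286 (limma adjusted p = 0.35) and the receptor Rara one of -0.46 ± 0.194 (limma adjusted p = 0.38). Hindlimb and pelvic factors of the Pitx, Tbx and Isl families were measured for 8 of 9, with 7 at background, 0 passing and 0 at an unadjusted p under 0.05. The smallest p among them belonged to Tbx3 (0.26 ± 0.132; limma adjusted p = 0.46), Tbx2 (0.31 ± 0.198; limma adjusted p = 0.54) and Isl1 (-0.19 ± 0.138; limma adjusted p = 0.59).

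Genes that flank the clusters were compared for the same reason. Of 27 neighbours 22 were measured and 0 passed (2 had an unadjusted p under 0.05, beside 12.7% of all genes), with a median change of 0.010. The 3 with the smallest p were Hnrnpa2b1, an RNA-binding protein gene near HoxA (-0.44 ± 0.135; limma adjusted p = 0.23), Ttll6 near HoxB (0.35 ± 0.151; limma adjusted p = 0.38) and the homeobox gene Evx2 next to Hoxd13, at background (0.36 ± 0.161; limma adjusted p = 0.40). Of 17 noncoding RNAs of the clusters 2 were measured, and neither had an unadjusted p under 0.05. Hoxd3os1, antisense in the anterior part of HoxD, read 8.42, 8.82, 8.89 and 8.86 in WT and 9.11, 8.89 and 8.92 in MCT4KO, above the control median on every array (0.22 ± 0.153; limma adjusted p = 0.57). Hoxa11os, antisense to Hoxa11, read at background like Hoxa11 itself (0.27 ± 0.128; limma adjusted p = 0.43). Whether the array's features separate such antisense RNAs from the genes they overlap was not tested.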

How the data were processed

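RNA of mouse NP was measured on Affymetrix whole-transcript arrays, 1 animal each (4 WT, 3 MCT4KO). The authors deposited 1 log2 value per feature and array, and the submitters' processing notes name Affymetrix Expression Console 1.4.1. The log2 unit was inferred from the deposited range. The sources used here do not say how background was corrected, how arrays were normalized and summarised, or which build the annotation used. Deposited values reached 19.41, and how they relate to the scanner's readings is unknown, so differences are stated on the deposited scale.

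Of 28846 features, 19572 carried 1 gene symbol and 0 several, all matched by gene identifier to the RefSeq table (GRCm38.p6). Where a gene had several features (55 genes), the one of highest mean was taken. The 19505 genes were fitted with limma 3.58.1 (R 4.3.3; lmFit, eBayes, 5 residual and 4.66 prior degrees of freedom, no covariate), with two-sided p-values adjusted by Benjamini-Hochberg over all genes and called under 0.05. The fit was tested on simulated data. Detection meant above the 95th percentile of an array's negative controls on every array of a group, and background at or below their median. Precision is limited by the number of animals; arrays have no read depth.

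Every Hox gene was named. From each of 8 pathway lists the called members and up to 3 with the smallest p were named, and 14 lists gave cell type markers. The Hox genes, lists and rules were chosen with earlier results of these data known. Alternatives were quantile normalization, median centring, a filter on low genes, values raised to the control median, other feature rules, a mean-variance trend, array weights, the animal number as a block, and leaving out animals. Promoter motifs were searched in Python 3.11.15.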

Additional observations from a re-analysis of the deposited data

Results flagged for a closer look

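Values of 4 genes in the WT group stood apart from the other WT animals: the gap between the outlying animal and its nearest neighbour, divided by the range of the 4 animals, exceeded Dixon's 95% critical value. Of 57 Hox and listed genes so examined, 4 did, and chance gives about 1 in 20. Hoxa11 read 3.87 in WT 4 and 3.93 in each of the other 3 (gap 0.917), all at background. Hoxd3os1 read 8.42 in WT 1 and 8.82 to 8.89 in the others (gap 0.859). Msgn1, a mesoderm factor, read 4.76 in WT 1 and 4.08 to 4.17 in the others (gap 0.871), and Isl1, a hindlimb factor, read 5.62 in WT 4 and 5.30 to 5.31 in the others (gap 0.976), both below the control medians. MCT4KO, with 3 animals, was not examined in this way.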

How the results depend on the processing

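No Hox gene passed the threshold under any alternative run, with limma adjusted p of at least 0.18, while 115 of all genes passed in the main setting. Of 521 Hox changes under alternatives 490 kept their direction and 31, in 11 genes, reversed. The count of all genes was 26 with values raised to the control median, 16 without WT 1 and WT 2 together, and 15 to 64 without 1 animal (61, 40, 18 and 25 without WT 1 to 4; 35, 64 and 15 without MCT4KO 1 to 3). Same-numbered deviations correlated at -0.127, 0.016 and 0.050, and differently numbered ones at -0.117 to 0.120. These values show no pairing by animal number, but with so few animals they cannot exclude it. With the replicate number as a block, under which WT 4 has no partner, 6 genes passed and 0 Hox genes.

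The Hox median of 0.15 was 0.0856 after quantile normalization, -0.0647 over the 13 genes above the median gene, and 0.11 to 0.18 without 1 animal. With values raised to the control median it was -0.0079. That value was set by the controls and tells nothing of Hox genes, because the 20 background genes then take the control median itself. The count of Hox genes without overlap, 2, was 1 after quantile normalization, 0 above the median gene, 0 with raised values, 4 without WT 1 and WT 2, and 2 to 12 without 1 animal (4 and 7 without WT 3 and WT 4; 4, 12 and 7 without MCT4KO 1 to 3), where fewer animals make separation easier. The share over all genes, 12.0%, is for all 7 arrays, so the counts with animals left out cannot be set against it. Both counts of 0 were fixed in advance. The 2 genes, Hoxb1 and Hoxd13, read at background, and neither setting counts background genes. Detected genes, 2 in WT and 3 in MCT4KO, became 5 and 5 at the 90th percentile, 0 and 0 at the 99th, 13 and 13 at the control median, 11 and 11 above every GC background feature, and 2 to 3 and 3 to 4 without 1 animal.

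Reversed after quantile normalization were Hoxa4 (0.0011), Hoxa11 (-0.0328), Hoxb2 (0.0466), Hoxc5 (-0.0689), Hoxd1 (-0.0330) and Hoxd11 (0.0032), with array weights Hoxa11 (-0.0091), with the replicate block Hoxc5 (-0.0039), Hoxc12 (0.15), Hoxd9 (-0.10) and Hoxd10 (-0.12), and without WT 1 and WT 2 Hoxd1 (-0.0595) and Hoxd11 (0.10). Ranges without 1 animal that crossed 0 were -0.21 to 0.0014 for Hoxa4, -0.14 to 0.13 for Hoxa11, -0.15 to 0.0272 for Hoxb2, -0.0015 to 0.37 for Hoxb5, -0.0170 to 0.22 for Hoxb8, -0.15 to 0.10 for Hoxc5, -0.28 to 0.15 for Hoxc12, -0.10 to 0.12 for Hoxd9, -0.12 to 0.51 for Hoxd10 and -0.45 to 0.29 for Hoxd11. The cause of each was not tested. Without 1 animal the changes of Hoxa2 (-0.60 to -0.25), Hoxa3 (-0.53 to -0.21), Hoxa5 (-0.56 to -0.19) and Hoxa6 (-0.56 to -0.28) stayed below 0.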
